A study of Sus scrofa with 48 samples.

Results

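The circadian clock genes form a group of 10 genes in these arrays of pig perirenal adipose tissue (PRAT, the fat around the kidney), namely ARNTL, CLOCK, PER1, PER2, PER3, CRY1, CRY2, NR1D1, NR1D2 and DBP. Members were found by the gene name that the scanner files attach to each probe, with upper and lower case treated alike. Of the 10 genes, 8 had a probe by that rule, out of 11401 distinct gene symbols on the array, and all 8 had a probe that could be tested. No probe carried the name CLOCK or DBP, and these genes are not analysed here. The 8 measured genes were read by 13 probes of 60 bases, and 12 of those probes were tested.

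PRAT was taken from 48 castrated male Large White pigs at 132 days of age, with 1 one-colour array per pig. They belonged to lines bred apart for residual feed intake (RFI, the feed eaten minus the feed predicted), 24 pigs to the low, more efficient line (RFIneg) and 24 to the high line (RFIpl). Each line was split between a diet rich in fat and fiber (HF) and a diet poor in both and rich in starch (LF), each eaten at will. The 4 groups were therefore HF_RFIneg, HF_RFIpl, LF_RFIneg and LF_RFIpl, with 12 pigs in each. There was no unselected line and no other baseline diet, so each difference is HF against LF or low RFI against high RFI. The time of day at which each pig was sampled is not given in the sources used here.

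The circadian clock of mammalian cells is a feedback loop of transcription. ARNTL (BMAL1) pairs with CLOCK and switches on the PER and CRY genes, whose proteins block that pair, and the NR1D genes, whose proteins (REV-ERB-alpha and REV-ERB-beta) shut down ARNTL and also repress CRY1. DBP is another direct target of the pair. In adipose tissue the loop is known to run through the day, with ARNTL and the NR1D genes at opposite ends of it, so 1 sample per animal shows 1 moment of each animal's loop.

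The probes on which most of the results turn are shown first, because every value below is the brightness of such a stretch and not of a whole transcript. The sequences are those of the scanner files. When a gene had several probes, the one with the highest mean over the 48 arrays represented the gene, and the others are given beside it.
ARNTL, probe A_72_P481317: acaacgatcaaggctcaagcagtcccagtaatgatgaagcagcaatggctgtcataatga
ARNTL, probe A_72_P035936: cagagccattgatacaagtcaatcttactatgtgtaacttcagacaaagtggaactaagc
NR1D1, probe O11226: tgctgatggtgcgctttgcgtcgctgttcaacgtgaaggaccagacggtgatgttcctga
NR1D2, probe A_72_P008511: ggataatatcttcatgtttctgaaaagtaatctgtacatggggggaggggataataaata
CRY1, probe A_72_P255677: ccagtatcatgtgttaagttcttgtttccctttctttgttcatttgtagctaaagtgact
CRY1, probe A_72_P453794: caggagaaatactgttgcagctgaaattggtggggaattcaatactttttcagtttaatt
PER3, probe O9093: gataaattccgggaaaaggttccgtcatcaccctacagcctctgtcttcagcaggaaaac

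No 12-base word was shared between probes of 1 gene, so probes of 1 gene read separate stretches.

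All 48 arrays were usable. Array medians lay between 115 and 178 units of signal, and 38875 to 47813 probes per array were well above background. The arrays lay on 6 slides with 2 pigs of each group on every slide, and they were scanned on 2 days. All 7 adipocyte markers, among them ADIPOQ, PLIN1 and FABP4, were well above background on every array. Levels below are log2 signal minus the log2 median of the array, so 0 is the median probe of that array and levels of different probes are not set against each other. In bulk tissue, fewer cells of a type and less RNA per cell cannot be told apart.

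ARNTL, the DNA-binding partner of CLOCK, varied widely among pigs of 1 group. In HF_RFIneg pigs its level ran from -0.82 through a median of 0.01 to 0.76, and in HF_RFIpl pigs from -0.39 through 0.11 to 1.11. In LF_RFIneg pigs it ran from -0.62 through -0.18 to 0.42, and in LF_RFIpl pigs from -0.47 through 0.03 to 0.85. The 4 groups overlapped over most of their range. The HF minus LF difference was 0.14 ± 0.12 (SE, log2, limma, unadjusted p = 0.231, adjusted p = 0.382). For probe A_72_P035936 the diet difference was 0.23 ± 0.11 (unadjusted p = 0.0448, adjusted p = 0.119), and for A_72_P044041 it was 0.06 ± 0.06. The low minus high RFI difference of the representative probe was -0.22 ± 0.12 (limma, unadjusted p = 0.0684, adjusted p = 0.466). The second ARNTL probe, A_72_P035936, gave a line difference of -0.32 ± 0.11, for which the unadjusted p was 0.0070 and the adjusted p 0.144. Probe A_72_P044041, which was well above background on 42 of 48 arrays, gave -0.16 ± 0.06 (unadjusted p = 0.0159, adjusted p = 0.232). All 3 probes thus had lower means in low-RFI pigs, but none passed the adjustment over all tested probes.

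NR1D1 (REV-ERB-alpha), the heme-binding repressor of ARNTL, had its highest mean in HF_RFIneg pigs. In HF_RFIneg pigs its level ran from -0.65 through a median of -0.05 to 1.08, with a mean of 0.02 ± 0.52 (SD, n = 12). In HF_RFIpl pigs it ran from -1.60 through -0.34 to 0.75, with a mean of -0.46 ± 0.61. In LF_RFIneg pigs the range was -1.30 through -0.53 to 0.70, with a mean of -0.57 ± 0.60, and in LF_RFIpl pigs -1.32 through -0.48 to 0.48, with a mean of -0.49 ± 0.53. No HF_RFIneg pig fell below -0.65, whereas each other group held pigs below -1. All 4 groups overlapped. The diet difference over both lines was 0.31 ± 0.16 (SE, log2, limma, unadjusted p = 0.0575, adjusted p = 0.142) and the line difference 0.20 ± 0.16 (adjusted p = 0.693). The second NR1D1 probe was well above background on 5 of 48 arrays and was not tested.

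NR1D2 (REV-ERB-beta), the close relative of NR1D1, also had its highest mean in HF_RFIneg pigs. Its level in HF_RFIneg pigs ran from 3.98 through a median of 4.68 to 5.03, with a mean of 4.66 ± 0.30 (SD, n = 12). It ran from 3.72 through 4.14 to 5.04 in HF_RFIpl pigs, with a mean of 4.25 ± 0.36. In LF_RFIneg pigs it ran from 3.46 through 4.31 to 4.60, and in LF_RFIpl pigs from 3.54 through 4.18 to 4.87, with means of 4.23 ± 0.35 and 4.18 ± 0.41. The HF_RFIneg pigs sat highest by their mean and the means of the other 3 groups lay together, with overlap between all 4. The HF minus LF difference was 0.25 ± 0.10 (SE, log2, limma, unadjusted p = 0.0171, adjusted p = 0.0596), and the low minus high RFI difference was 0.23 ± 0.10 (unadjusted p = 0.0259, adjusted p = 0.297). The diet difference missed the call only on its unadjusted p, since a call required an unadjusted p below 0.01, a fold above 1.1 and an adjusted p below 0.08.

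Fitted in low-RFI pigs alone, the diet difference in NR1D2 was 0.43 ± 0.13 (limma, unadjusted p = 0.0023, adjusted p = 0.0374) and was called, as were 11.4% of all tested probes in that fit. In high-RFI pigs alone it was 0.07 ± 0.15 (adjusted p = 0.815). The test of that contrast itself, the diet by line interaction, gave 0.36 ± 0.20 for NR1D2 (unadjusted p = 0.0766) and 0.56 ± 0.32 for NR1D1 (unadjusted p = 0.0830), both with an adjusted p of 0.9999 (limma). A larger diet difference in the low-RFI line was therefore not shown for either gene. The estimated diet differences also stood apart by scan day, each day holding 6 pigs of each group. The NR1D2 diet difference was 0.05 ± 0.12 among the pigs scanned on the first day and 0.44 ± 0.15 among those scanned on the second. For NR1D1 these values were -0.02 ± 0.20 and 0.64 ± 0.23. The test of the difference between days gave unadjusted p-values of 0.0541 for NR1D2 and 0.0375 for NR1D1, with an adjusted p of 0.99997 for both (limma). A diet difference that varied with the scan day was therefore not shown either.

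CRY1, the cryptochrome that represses CLOCK and ARNTL late in the cycle, had its lowest mean, 1.47, in HF_RFIneg pigs and its highest, 1.72, in HF_RFIpl pigs. Its level ran from 0.89 through a median of 1.40 to 2.15 in HF_RFIneg pigs and from 1.19 through 1.70 to 2.14 in HF_RFIpl pigs. In LF_RFIneg pigs it ran from 1.04 through 1.59 to 2.15, and in LF_RFIpl pigs from 1.08 through 1.52 to 1.93. All 4 groups overlapped almost fully. The diet difference was 0.03 ± 0.09 (SE, limma, adjusted p = 0.835), the line difference -0.08 ± 0.09 (adjusted p = 0.831) and the interaction -0.36 ± 0.19 (unadjusted p = 0.0622, adjusted p = 0.9999). The second CRY1 probe gave a diet difference of 0.00 ± 0.09. By scan day the diet difference of CRY1 was 0.22 ± 0.11 on the first day and -0.16 ± 0.13 on the second, opposite in direction to NR1D1, and the test of the difference between days gave an unadjusted p of 0.0350 (limma, adjusted p = 0.99997). CRY2, the other cryptochrome, was among the steadiest probes, with all 48 pigs between 0.33 and 0.94. Its 2 probes gave diet differences of opposite sign, -0.07 ± 0.04 (unadjusted p = 0.0985) and 0.07 ± 0.04 (unadjusted p = 0.0796), and neither was called.

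The 3 period genes encode the partners of the cryptochromes in the repressing complex. PER1 lay between 7.02 and 8.42 over the 48 pigs, and its probe was saturated on no array. PER2 lay between 1.60 and 2.12, and PER3 between -0.18 and 0.71. Group means of each of these genes lay close together. The diet differences were 0.09 ± 0.08 for PER1 (SE, limma, adjusted p = 0.372), -0.01 ± 0.03 for PER2 (adjusted p = 0.836) and 0.02 ± 0.06 for PER3 (adjusted p = 0.821). The line differences were -0.06 ± 0.08, 0.04 ± 0.03 and 0.01 ± 0.06, none with an adjusted p below 0.68.

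**Figure D1:**
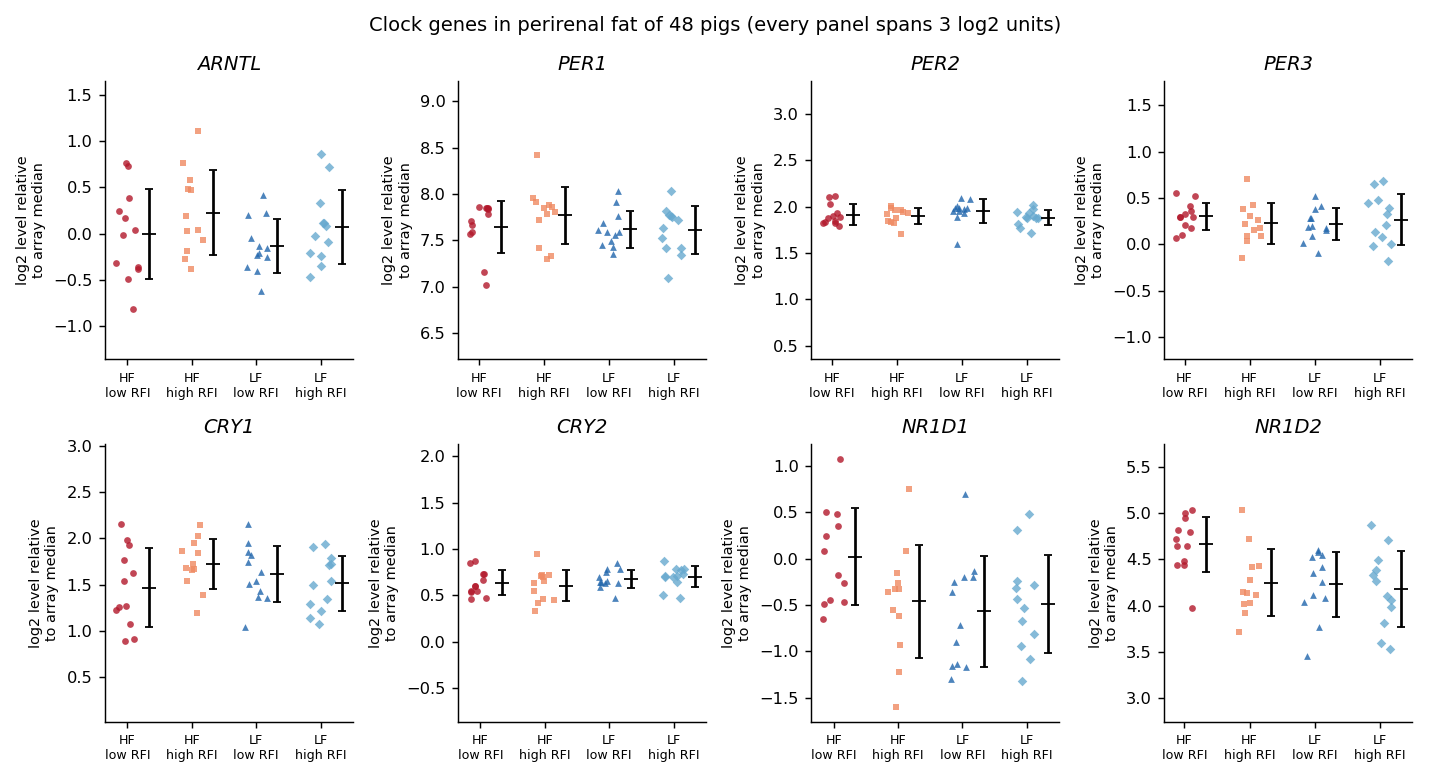
Level of the 8 measured clock genes in each pig (points, log2 signal relative to the array median) in the 4 diet and line groups, with the mean and SD of each group of 12 as a bar. Every panel spans 3 log2 units. The HF low-RFI pigs have the highest means in NR1D1 and NR1D2 (0.02 and 4.66), with overlap between all 4 groups. PER2 and CRY2 hardly spread at all.

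Counted over all members, 0 of 8 were called for diet (limma), against 22.1% of all 45749 tested probes. The median diet difference was 0.06 over the members and -0.02 over all tested probes. For line, 0 of 8 members were called against 3.22% of probes, and for the diet by line interaction 0 of 8 against 0% of probes, that is none. By representative probes, NR1D2 was the 1 member with an unadjusted p under 0.05 for diet and also for line. This held in limma and in the two-way ANOVA alike, and no member was reached for the interaction. By its other probes ARNTL was reached as well in limma, for diet with A_72_P035936 (unadjusted p = 0.0448). For line it was reached with A_72_P035936 (unadjusted p = 0.0070) and with A_72_P044041 (unadjusted p = 0.0159). The two-way ANOVA of the same values called 0 members in each case. In limma, 17791 tested probes had an unadjusted p under 0.05 for diet, 5624 for line and 1074 for the interaction. With centring on the 75th percentile, 4976 of 9981 probes called for diet were higher in HF, against 3740 of 10128 with the median, so counts of higher and lower calls below depend on the centring.

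Other genes tied to the clock were counted in the same fit. Of 16 other clock genes listed, 12 were tested, of which 1 was called higher in HF pigs and 2 lower, and none was called for line (limma, with HLF and TEF the 2 at an unadjusted p under 0.05). NPAS2, which can take the place of CLOCK as the partner of ARNTL, was lower in HF pigs by -0.61 ± 0.17 (SE, log2, limma, adjusted p = 0.0060). NFIL3, a repressor that competes with DBP for the same sites, was lower by -0.34 ± 0.11 (adjusted p = 0.0225). BHLHE41 (DEC2), a repressor of CLOCK and ARNTL, was higher by 0.36 ± 0.12 (adjusted p = 0.0201). CIART, a repressor of the loop, gave 0.21 ± 0.10 (adjusted p = 0.111), and HLF, a relative of DBP, gave a line difference of 0.22 ± 0.08 (adjusted p = 0.183). The median diet difference of the 12 genes was -0.04, beside -0.02 over all tested probes.

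Of 20 kinases, ligases and cofactors of the clock, 18 were tested, of which 2 were called higher in HF pigs and 5 lower. SIRT1, a deacetylase that acts on the clock, was higher by 0.33 ± 0.07 (SE, limma, adjusted p = 0.00043). NAMPT, which makes the NAD that SIRT1 uses, was lower by -0.51 ± 0.09 (adjusted p = 2.3e-05). GSK3B, a kinase of several clock proteins, was lower by -0.38 ± 0.05, CSNK2A1 by -0.33 ± 0.05, KAT2B by -0.23 ± 0.06 and PRKAA2 by -0.22 ± 0.07. None of the 18 was called for line, and none had an unadjusted p under 0.05 there. The share called for diet in both lists is to be read against the 22.1% of all probes. Cell type markers moved with diet as well. Of 7 macrophage markers, 6 were higher in HF pigs, and 3 of 7 adipocyte markers were lower. The mean level of the macrophage list ran from 2.04 to 4.34 in the HF groups and from 1.81 to 4.05 in the LF groups, and that of the adipocyte list from 8.42 to 8.96 and from 8.55 to 9.20. The part of these cells in the diet differences was not tested.

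The members differed sharply in how much they varied among pigs of 1 group. NR1D1 had a within-group SD of 0.57 (log2), larger than that of 96.0% of all tested probes, and its extremes among the 48 pigs lay 6.39-fold apart. Its lowest level was -1.60, and its probe was well above background on 47 of the 48 arrays. The low end of that range may therefore lie near background. ARNTL followed with an SD of 0.42 (90.8%), NR1D2 with 0.36 (86.4%) and CRY1 with 0.33 (83.2%). These 4 genes thus lay in the upper part of the distribution, whose median was 0.21. PER1 had an SD of 0.27 (71.5%) and PER3 of 0.21 (51.7%). At the other end lay CRY2, with 0.13 (7.94%), and the 1 probe for PER2, with 0.10 (0.89%), which no other probe of that gene could check. Compared only with probes within 0.5 log2 units of the same mean level, NR1D1 still exceeded 95.8% and PER2 0.618%. ARNTL probes A_72_P035936 and A_72_P044041 had SDs of 0.40 and 0.22, and the second probes of CRY1 and CRY2 had 0.31 and 0.13.

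**Figure D2:**
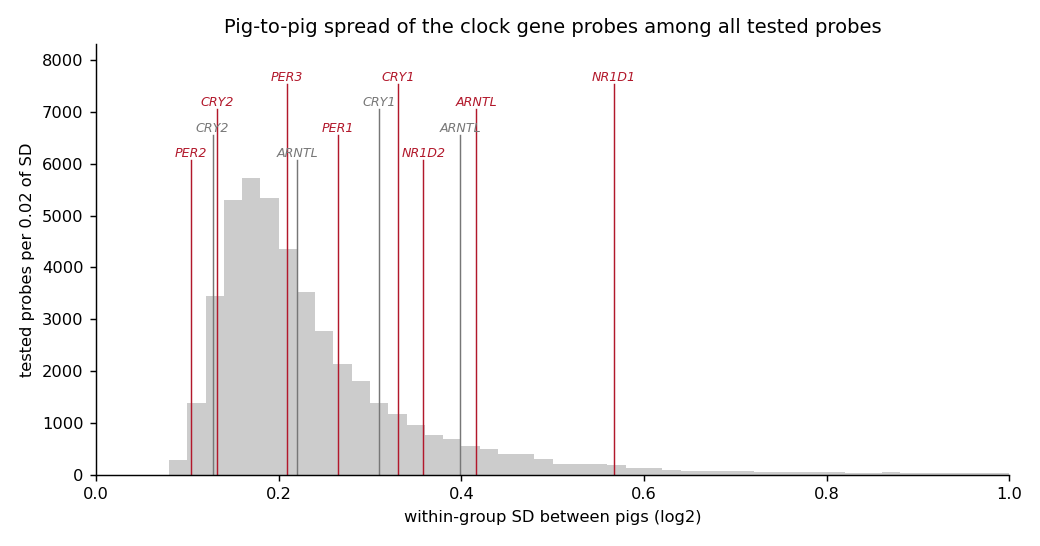
Distribution of the within-group SD between pigs (log2, horizontal axis) over the 45749 tested probes (grey bars), with lines for representative probes of the clock genes in red and their other tested probes in grey. PER2 and CRY2 lie at the left edge (SD of 0.10 and 0.13), and NR1D1 lies far to the right (SD of 0.57).

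Whether the genes of the loop moved together from pig to pig was asked next, after subtraction of the 4 group means. Probes of 1 gene correlated at r = 0.84 for CRY1 and at 0.43 to 0.74 for ARNTL, but at 0.22 for CRY2 and 0.34 for NR1D1, whose second probe was mostly not above background. With 1 probe per gene, the 8 genes gave 28 pairs. Without subtraction of group means, 10 of the 28 pairs had a permutation p under 0.05, and with it 8 did. Permutation tests were two-sided with 100000 resamples, kept pigs within their group where group means were subtracted, and 1e-05 was the smallest p they could give.

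NR1D1 and NR1D2 were the pair that moved most closely together. Over the 48 pigs the Pearson r was 0.816 and the Spearman rho 0.828 (permutation p = 1e-05 for both), and with group means removed they were 0.784 and 0.792 (permutation p = 1e-05). The r was between 0.697 and 0.822 in each of the 4 groups. It was 0.761 and 0.809 within the first and the second scan day, 0.790 with slide means also removed, and 0.809 without the 2 pigs whose NR1D1 lay farthest from the median. Pigs high in one REV-ERB gene were thus high in the other in every group and batch examined.

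CRY1 went the other way. Its r with NR1D1 was -0.614 over all pigs (rho -0.601, permutation p = 1e-05 and 3e-05) and -0.617 with group means removed (rho -0.629, permutation p = 2e-05 and 1e-05). The r was negative in each of the 4 groups, between -0.770 and -0.312. It was -0.647 and -0.648 within the 2 scan days, -0.676 with slide means removed and -0.579 without the 2 farthest pigs. The second CRY1 probe gave -0.615. CRY1 was also opposed to PER3, with r = -0.580 and rho = -0.559 after removal of group means (permutation p = 3e-05 and 9e-05), -0.703 and -0.541 within scan days and -0.519 without the 2 farthest pigs. By group this r was -0.769 in HF_RFIneg, -0.634 in HF_RFIpl and -0.803 in LF_RFIpl, but -0.162 in LF_RFIneg. Its r with NR1D2 was -0.419 (rho -0.467, permutation p = 0.0028 and 0.00117), and with CRY2 it was -0.389 (rho -0.437, permutation p = 0.00851 and 0.00278). The r with CRY2 was -0.178 within the first scan day and -0.609 within the second.

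PER3 and NR1D1 moved in parallel, with r = 0.464 and rho = 0.484 (permutation p = 0.00105 and 0.00067), 0.356 and 0.541 within scan days and 0.483 without the 2 farthest pigs. PER1 had an r of 0.344 with NR1D1 and of 0.357 with NR1D2 (permutation p = 0.0210 and 0.0154). These fell to 0.201 and 0.170 without the 2 pigs whose PER1 lay farthest from the median, so they rest in part on those pigs. The rho of PER1 was 0.308 with NR1D1 (permutation p = 0.0378) and 0.246 with NR1D2 (permutation p above 0.05). Over the 4 groups, its r ran from 0.286 to 0.492 with NR1D1 and from 0.007 to 0.549 with NR1D2. PER2 had r between -0.216 and 0.047 with the representative probes of the other members, and the lowest permutation p of these was 0.157. Its rho with NR1D1 was -0.280 (permutation p = 0.0590), or -0.302 before removal of group means (permutation p = 0.0378). The r of PER2 with NR1D1 was -0.431 within the first scan day (permutation p = 0.0217) and -0.014 within the second (permutation p = 0.951).

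**Figure D3:**
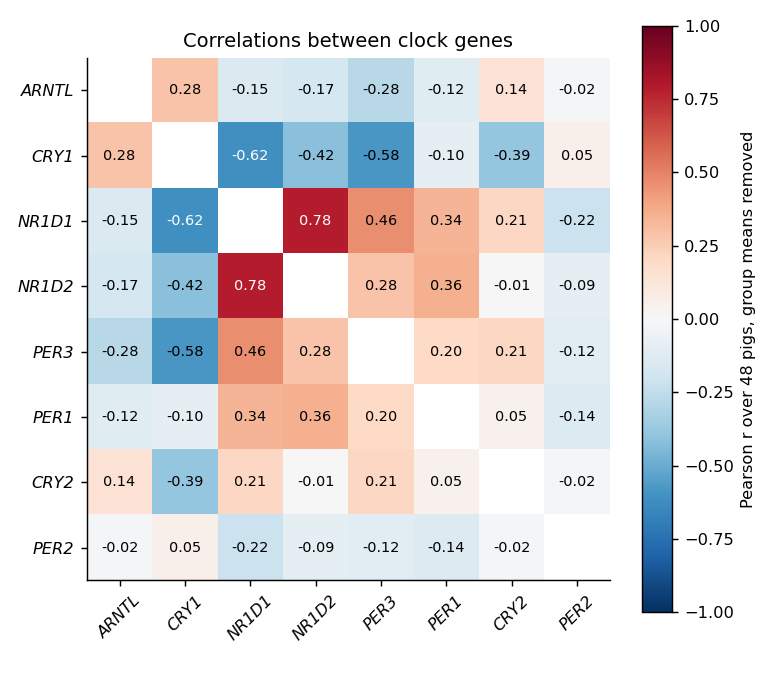
Pearson correlations between the 8 measured clock genes over 48 pigs with group means removed, 1 probe per gene, on a colour scale from -1 to 1. CRY1 is negative with NR1D1, PER3, NR1D2 and CRY2 (-0.62 to -0.39), and NR1D1 with NR1D2 is the highest value (0.78).

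**Figure D4:**
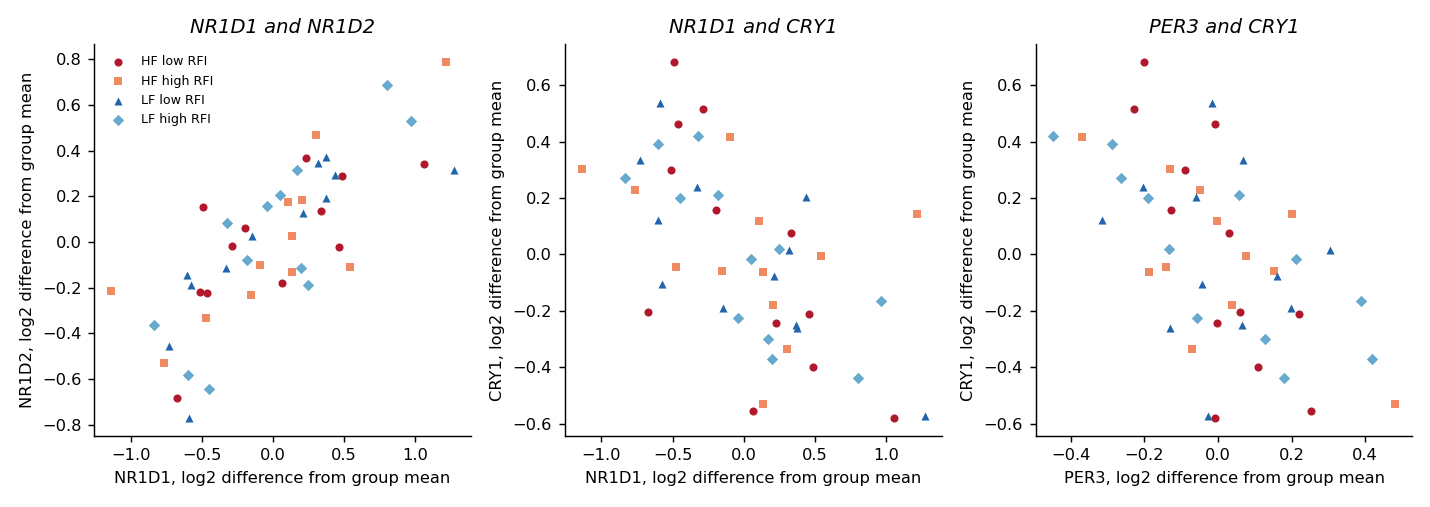
Each pig's log2 difference from its group mean for NR1D2 against NR1D1, CRY1 against NR1D1 and CRY1 against PER3, with colour and marker by group. The first panel rises (r = 0.784) and the other panels fall (r = -0.617 and -0.580), with LF_RFIneg pigs scattered most in the last (r = -0.162).

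ARNTL, the positive arm of the loop, stood apart from this set when read by its representative probe. Its r with group means removed was -0.147 with NR1D1 (permutation p = 0.330), -0.174 with NR1D2 (p = 0.243 by permutation), -0.278 with PER3 (permutation p = 0.0619) and 0.282 with CRY1 (permutation p = 0.0687). ARNTL was thus negative with NR1D1, NR1D2 and PER3 and positive with CRY1, but weakly. The Spearman rho with PER3 was -0.310 (permutation p = 0.0369), or -0.296 before removal of group means (permutation p = 0.0412), and the r with CRY1 before that removal was 0.299 (permutation p = 0.0400). Within the first scan day the r was -0.525 with PER3 and 0.477 with CRY1 (permutation p = 0.0112 and 0.0214), against -0.093 and 0.120 within the second (permutation p = 0.676 and 0.631). Whether the days differ in these correlations was not tested. The other probes gave larger values of the same signs. Probe A_72_P035936 had r = -0.504 with PER3, 0.405 with CRY1 and -0.334 with NR1D2, and probe A_72_P044041 had r = -0.523 with NR1D2, 0.471 with CRY1 and -0.457 with PER3. With the tested probes of each gene averaged, ARNTL had r = -0.461 with PER3, 0.464 with CRY1, -0.354 with NR1D2 and -0.248 with NR1D1.

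To place these relations among those of the whole array, the level of each member was entered as a covariate in a limma fit over all tested probes of other genes, with the 4 groups as terms. A probe was called at an unadjusted p below 0.01 and an adjusted p below 0.08. With ARNTL as the covariate, 0 of 7 other members were called, while 2.47% of probes were, and no representative probe had an unadjusted p under 0.05 (lowest 0.0539, CRY1, adjusted p = 0.274). The second CRY1 probe had an unadjusted p of 0.0146 (adjusted p = 0.162). With the second ARNTL probe, 4.75% of probes were called and PER3 was the 1 member among them by its representative probe (adjusted p = 0.0370), with the second CRY1 probe called too (adjusted p = 0.0399). With probe A_72_P044041, 0% of probes were called. In that fit 5 members had an unadjusted p under 0.05, among them NR1D2, 5th from the bottom of 45746 probes, PER3, 31st from the bottom, and CRY1, 37th from the top (adjusted p = 0.596, 0.704 and 0.662). When slide was added to the fit, the number of probes called with the first ARNTL probe fell from 1129 to 0. A covariation with ARNTL that differed between the diets was found for 0 of 7 members and 0% of probes.

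NR1D1 as the covariate gave calls among the members. Of 7 members, 2 were called, NR1D2 and CRY1, against 0.470% of probes. NR1D2 rose by 0.50 ± 0.06 log2 units per log2 unit of NR1D1 (SE, limma, adjusted p = 3.74e-06), which placed it 1st of all 45748 probes. CRY1 fell by 0.36 ± 0.07 (adjusted p = 0.0162), 8th from the bottom of the 45748, and its second probe was 9th from the bottom. PER3 was 135th from the top but was not called (0.17 ± 0.05, adjusted p = 0.119). With slide in the fit the same 2 members were called, together with 214 probes in all against 215 without it. Fitted within either scan day, with 24 pigs, 0 members and 0 probes were called, although the r of both pairs within days was close to that over all pigs. The covariation with NR1D1 differed between the diets for 0 of 7 members and 0% of probes. These relations were chosen with the pair correlations in view.

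**Figure D5:**
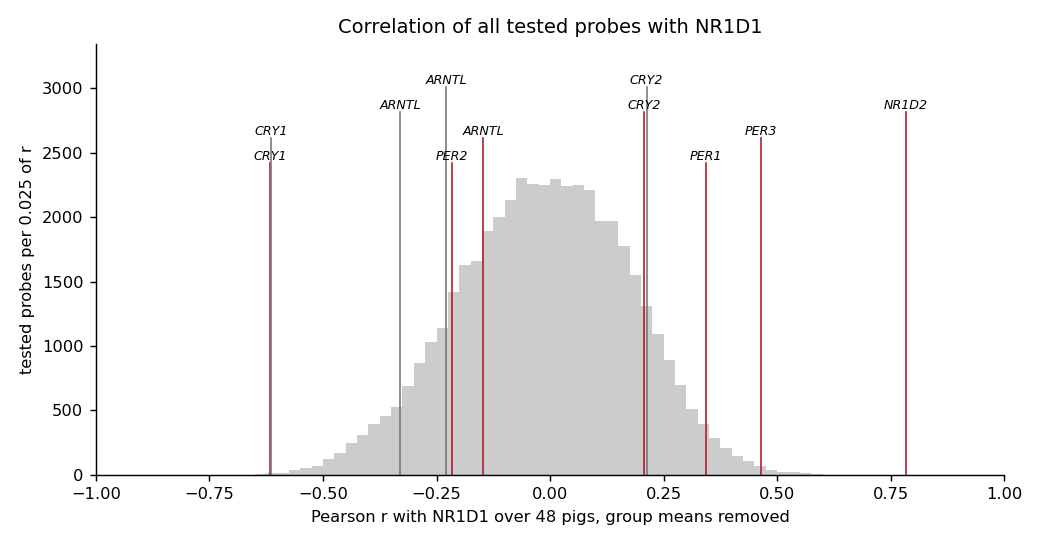
Pearson r with NR1D1 over 48 pigs, group means removed, for all 45748 tested probes of other genes (grey bars), with red lines for representative probes of the other clock genes and grey lines for their other tested probes. NR1D2 is the highest of all probes (0.78), both CRY1 probes lie in the lower tail (-0.62 and -0.61), and ARNTL and PER2 lie inside the bulk.

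The remaining members as covariates read the same pairs from the other side, which is no separate support for a pair. Calls could differ by side. NR1D2 was called with CRY1 as the covariate, but CRY1 was not called with NR1D2 (limma, adjusted p = 0.219). With NR1D2, NR1D1 was the 1 member called, again 1st of 45748 probes (adjusted p = 2.34e-06), against 0.173% of probes. With PER3, 2 members were called, CRY1 (5th from the bottom, adjusted p = 0.0231) and NR1D1 (adjusted p = 0.0611), against 2.20% of probes, and both other ARNTL probes were called with negative slopes (adjusted p = 0.0451 and 0.0747). With CRY1, 3 members were called, NR1D1 (adjusted p = 0.00480), PER3 (adjusted p = 0.0108) and NR1D2 (adjusted p = 0.0694), against 5.64% of probes, along with ARNTL probe A_72_P044041 (adjusted p = 0.0410). The second CRY1 probe as the covariate called the same 3 members, but 8170 of 45747 probes against 2578 with the first. The share of probes called with CRY1 thus depends strongly on the probe. With PER1, PER2 and CRY2 as covariates no member was called, against 0.00656%, 2.23% and 0.0153% of probes, and PER2 had the most called probes of these 3, 1022.

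Of the 12 other clock genes tested, NFIL3 was the 1 called with NR1D1, with r = -0.51 (slope -0.36 ± 0.09, adjusted p = 0.0631). With CRY1 as the covariate NFIL3 was called with r = 0.50 (adjusted p = 0.0257), and TEF, a relative of DBP, and CIART were called with r = -0.45 and -0.47 (adjusted p = 0.0539 and 0.0399). CIART was also called with PER3, at r = 0.55 (adjusted p = 0.0337). Over all probes, 0.470% were called with NR1D1, 0.173% with NR1D2, 5.64% with CRY1 and 2.20% with PER3. None of the 12 was called with ARNTL or NR1D2. NFIL3 thus rose with CRY1, while CIART and TEF fell with it. NPAS2, which was called for diet, had r between -0.13 and 0.17 with ARNTL, CRY1, NR1D1, NR1D2 and PER3. Of the 18 kinases, ligases and cofactors, SIRT1 was called with NR1D1 (r = 0.53, adjusted p = 0.0514) and with NR1D2 (r = 0.65, adjusted p = 0.0098), and no other was called with any of these 5 genes.

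Over 10052 gene symbols with 1 probe each, the 5 most like NR1D1 from pig to pig were NR1D2 (r = 0.78), POLI (0.62), GPANK1 (0.60), PIK3IP1 (0.57) and TRUB1 (0.56), and the 5 most opposed were AMD1 (-0.66), HSPA13 (-0.63), LUZP1 (-0.63), LYSMD3 (-0.63) and SEC14L1 (-0.62). The gap between NR1D2 and the next gene was larger than any other gap in these lists. For ARNTL the 5 highest were GTF2I (0.60), DERA (0.59), PQLC3 (0.58), MTMR9 (0.58) and MYL12A (0.58), and the 5 lowest ELAVL3 (-0.60), PSMB11 (-0.57), CEP55 (-0.57), HPCA (-0.57) and DOT1L (-0.56). No clock gene was among the 10 genes for ARNTL. All 20 were called in their covariate fit, with group terms but without slide.

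Some markers of cell types moved with CRY1 and PER3, whose representative probes called 5.64% and 2.20% of all probes. With CRY1 as the covariate CIDEC, a lipid droplet protein of adipocytes, was called with r = -0.59 (adjusted p = 0.0096) as 1 of 7 adipocyte markers. The mean of that list had r = -0.38 with CRY1 and 0.08 with NR1D1. AQP2, a water channel of the kidney collecting duct, was called with CRY1 at r = -0.59 (adjusted p = 0.0088). It ran from 1.72 to 3.43 in the HF groups and from 2.26 to 3.98 in the LF groups, while SLC12A1, the other kidney marker with a probe, was well above background on 0 of 48 arrays. Of 4 adrenal markers tested, CYP11A1 was called (r = -0.50, adjusted p = 0.0302), and the list mean ran from -0.42 to 0.68 in the HF groups and from -0.31 to 0.82 in the LF groups. WT1, the 1 mesothelium marker with a probe, was called with r = 0.46 (adjusted p = 0.0396) and ran from 0.83 to 3.47 over all pigs. NR1D1 had r = 0.24 with AQP2, 0.22 with the adrenal list and -0.18 with WT1, and none of the markers in any list was called with NR1D1 or NR1D2. PER3 had r = 0.44 with the adipocyte list mean, with CIDEC the 1 of 7 markers called (r = 0.49, adjusted p = 0.0510). With the macrophage list mean the r was -0.33 for PER3, 0.29 for CRY1 and 0.32 for ARNTL, and no macrophage marker was called with any of these 3 genes. The part of these cells and tissues in the relations of CRY1, PER3 and ARNTL was not tested. With the first principal component of all tested probes removed, the r of CRY1 was -0.623 with NR1D1 and -0.582 with PER3.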

How the data were processed

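One-colour Agilent arrays measured PRAT RNA of 48 pigs. Per the file headers the scans were read with Feature Extraction 10.7.3.1. The authors deposited the scanner files, whose median intensity per spot was used here, and a table of log2 values that they had filtered and centred on the median of each array. Submitters' processing notes name R 2.10.0. The row names of the deposited table did not match its values, so it was used only for its selection of probes, of which 38104 of 38142 entries were matched by value to 1 spot each. A genome build is not given in the sources used here.

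Members and gene lists were chosen with earlier results of these data known. Non-control spots were taken as log2 intensity minus the log2 array median, and spots of 1 probe were averaged. A probe was tested when well above background on at least 12 of 48 arrays (45749 of 60305). Array number limits the precision. Diet, line and their interaction were fitted with limma 3.58.1 in R 4.3.3 on all 48 arrays, with Benjamini-Hochberg adjustment over all tested probes. Calls required an unadjusted p below 0.01, an adjusted p below 0.08 and, for diet and line, a fold above 1.1. Covariate fits used the level of 1 gene centred within groups. Named genes were the members, genes of the fixed lists and the 5 genes highest and lowest by r with ARNTL and with NR1D1, which replaced DBP. The scripts were tested on simulated data. Alternatives covered scaling, background correction, filters, slide, scan day, replicate number, probe choice, thresholds, a two-way ANOVA and subsets of pigs. The covariation with NR1D1, the other ARNTL probes as covariates, tests of differences between diets and between scan days, and 2 further scalings of the correlations were chosen after seeing the data.

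No arrays held identical values. A gene of the lists and a probe sequence are not reported here.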

Additional observations from a re-analysis of the deposited data

Results flagged for a closer look

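The correlation of CRY1 and NR1D2 was weaker in HF than in LF pigs, by an unadjusted test only. With group means removed, r was -0.153 among the 24 HF pigs and -0.699 among the 24 LF pigs, a difference of 0.546. Permuting the diet labels within lines 10000 times gave a two-sided permutation p of 0.0323, unadjusted, for the 1 pair under 0.05 among 28 pairs tested. With 28 tests and no adjustment, a difference between the diets was not shown. In the 4 groups r was -0.150 in HF_RFIneg, -0.176 in HF_RFIpl, -0.729 in LF_RFIneg and -0.678 in LF_RFIpl. The same difference for CRY1 and NR1D1 was 0.238 (permutation p = 0.212).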

How the results depend on the processing

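The number of members called for diet was 0 with limma and moved to 1, always NR1D2, under quantile normalization (diet difference 0.30 ± 0.10), under normexp with quantile normalization (0.31 ± 0.10), within the second scan day and in low-RFI pigs alone. Of all 45749 tested probes, these fits called 9824, 9189, 5711 and 5203, in that order. The number of members stayed at 0 under every other alternative, as did the numbers called for line, for the interaction and for covariations that differed between diets under all alternatives run. With ARNTL as covariate 0 members became 1 with the probes of a gene averaged (CRY1, adjusted p = 0.0769) and 1 with probe A_72_P035936 (PER3). With NR1D1 as covariate, 2 members became 0 within scan day 1, 0 within scan day 2, 0 in HF pigs alone and 1 in LF pigs alone (NR1D2), fits with 24 pigs each. The filter that required all 48 arrays dropped NR1D1, which was well above background on 47. Pairs with a permutation p under 0.05 numbered 10 of 28, or 8 with group means removed. Among 24 pigs each, they numbered 7 within scan day 1, 6 within scan day 2, 9 in LF pigs alone and 4 in HF pigs alone.

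Values that changed sign belonged to members that were not called. For diet these were PER2 at 0.0123 with 75th percentile centring, 0.0112 with the processed signal and 0.0197 in high-RFI pigs, PER3 at -0.0404 in high-RFI pigs, CRY1 at -0.164 within scan day 2 and -0.148 in low-RFI pigs, CRY2 at 0.0009 with probes averaged and NR1D1 at -0.0206 within scan day 1. For line, in LF pigs alone, PER1 was 0.0133, PER3 -0.0488, CRY1 0.102, CRY2 -0.0231 and NR1D1 -0.0799. Within scan day 1 the line difference of PER3 was -0.0443 and that of CRY2 -0.0308, and CRY2 was -0.0054 under normexp and -0.0138 with the processed signal. As slopes on ARNTL, PER1 was 0.0615 within scan day 1 and 0.03 in LF pigs, PER2 0.0019 with a scan day block and 0.0765 within scan day 1, and CRY2 -0.0129 with probes averaged and -0.0036 within scan day 1. The causes were not tested.

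Pigs of the same replicate number lay on the same slide, so number and slide cannot be fully told apart. Deviations of the 72 same-numbered pairs from their group means correlated between -0.312 and 0.548. Their median was 0.115, against -0.009 for pairs of different number and 0.062 for pairs of different number on the same slide. With slide means removed the median of same-numbered pairs was -0.084, but that removal by itself lowers correlations within a slide. Of 48 arrays, 15 correlated best with another array of their own number. The main fits did not treat equal numbers as pairs. With a replicate block, 0 members were called for diet, line, interaction and covariation with ARNTL and 2 for covariation with NR1D1, as without it. The number of probes called with ARNTL went from 1129 to 0 under the replicate block and under the slide block, and to 7245 within scan day 1. The number called with NR1D1 went from 215 to 117 under the replicate block and to 439 with 75th percentile centring.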

Other observations

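Lists of genes outside the loop were counted in the same way. Of 9 immediate early genes tested, which respond within minutes to stimuli, 5 were higher in HF pigs and none lower, against 22.1% of all probes called. FOS was higher by 0.89 ± 0.26 (SE, log2, limma, adjusted p = 0.0083), EGR1 by 0.43 ± 0.16, JUN by 0.35 ± 0.11, BTG2 by 0.31 ± 0.08 and MYC by 0.27 ± 0.09. None was called for line. None was called as covarying with ARNTL, NR1D1, NR1D2, CRY1 or PER3, and the list mean had r = 0.30 with ARNTL and 0.04 with NR1D1.

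Of 10 genes of the glucocorticoid response tested, PDK4, a brake on glucose oxidation, was the 1 called for diet, higher in HF pigs by 0.83 ± 0.23 (limma, adjusted p = 0.0071). MT1A, a metallothionein, was the 1 called for line, higher in low-RFI pigs by 1.67 ± 0.48 (adjusted p = 0.0482). Over all tested probes, 22.1% were called for diet and 3.22% for line. FKBP5, KLF9 and NR3C1 had diet differences of -0.05, 0.00 and 0.05. No gene of the list was called with ARNTL, NR1D1, NR1D2, CRY1 or PER3 as the covariate.

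Of the remaining marker lists, 1 of 5 T and NK cell markers (NKG7) was called higher in HF pigs and AQP2 was called lower, while 0 of 5 endothelial, 0 of 5 fibroblast, 0 of 3 muscle, 0 of 4 adrenal, 0 of 1 mesothelial and 0 of 2 erythrocyte markers tested were called for diet by limma. Over all tested probes, 22.1% were called for diet. At an unadjusted p under 0.05 these lists held TEK, COL3A1 and ACTA1. With ARNTL as the covariate, TEK, an endothelial receptor, was called at r = 0.45 (adjusted p = 0.0721) and CYP21A2, an adrenal steroid enzyme, at r = -0.47 (adjusted p = 0.0664). That fit called 2.47% of all probes without slide or replicate number as a term. With either of these added, no probe was called with ARNTL, so neither marker was called there. PER2 had r = 0.44 with the median signal of the array, the highest of any member.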
